A study of Mus musculus with 62 samples.

Results

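Places in the genome where the histone mark H3K27ac was higher in Daxx-KO than in WT haematopoietic stem and progenitor cells (HSPCs) at both 3 and 24 weeks post induction (w.p.i.) were described. A site counted as a lasting gain when it was listed on an autosome at 24 w.p.i., shared at least 1 bp with a site listed at 3 w.p.i., and had both Daxx-KO values above both WT values at each age. Of 193657 listed autosomal sites at 24 w.p.i., 7086 met this rule, which is 3.66%. The sites were selected on their H3K27ac values, so the H3K27ac levels below are a description and were not tested.

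HSPCs were bone-marrow cells that lacked lineage markers and carried c-Kit, enriched with magnetic beads, and CUT&Tag, which cuts and tags the DNA beside an antibody-bound protein, was run on them. WT cells were Daxx +/+ Cre +/- and Daxx-KO cells were Daxx F/F Cre +/-, with exons 2 to 7 of Daxx floxed, so both groups carried Cre. The Cre line of these mice is not given in the sources used here, and deletion was not confined to HSPCs. H3K27ac was measured in 2 mice per genotype at 3 w.p.i. and in 2 other mice per genotype at 24 w.p.i., so that the 8 libraries came from 8 mice. The same 4 mice at 24 w.p.i. also gave H3.3, Pu.1, H3K9me3 and H3K27me3 libraries. At 3 w.p.i. H3K9me3 came from the H3K27ac mice, and H3.3 and Pu.1 shared only 1 WT mouse with them. H3K9me3 was further measured at 8 w.p.i. in 3 mice per genotype.

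Acetylation of lysine 27 of histone H3 marks active promoters and enhancers, and the same lysine carries H3K27me3 where Polycomb complexes keep genes silent. H3K9me3 marks heterochromatin, including silenced repeats. Daxx is a chaperone that deposits the histone variant H3.3, and Pu.1, encoded by Spi1, is an ETS-family transcription factor of myeloid and lymphoid progenitors.

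Sequences of 200 bases from 5 lasting gains are shown as examples of a neutrophil protease promoter, a granulocyte regulator, an enhancer-like site of a stem-cell regulator, a gluconeogenesis promoter and the site that overlapped a changed site of every other mark. They were read from the GRCm38 (mm10) genome on the plus strand, in stretches free of annotated exons, and capitals mark an ETS motif (GAGGAAGT) or an AP-1 motif (TGANTCA) on either strand. The windows are chr10:79886047-79886246 for Elane, chr14:54712999-54713198 for Cebpe, chr16:95612297-95612496 for Erg, chr13:62888283-62888482 for Fbp1 and chr5:36090073-36090272 for Afap1.
Elane: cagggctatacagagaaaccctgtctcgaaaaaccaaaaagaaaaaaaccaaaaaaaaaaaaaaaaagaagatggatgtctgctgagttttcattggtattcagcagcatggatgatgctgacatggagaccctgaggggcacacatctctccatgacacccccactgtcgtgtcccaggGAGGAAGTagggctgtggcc
Cebpe: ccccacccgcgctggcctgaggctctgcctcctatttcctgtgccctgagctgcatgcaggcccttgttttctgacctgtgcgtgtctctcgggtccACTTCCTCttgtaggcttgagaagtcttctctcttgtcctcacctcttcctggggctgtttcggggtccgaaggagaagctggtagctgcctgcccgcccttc
Erg: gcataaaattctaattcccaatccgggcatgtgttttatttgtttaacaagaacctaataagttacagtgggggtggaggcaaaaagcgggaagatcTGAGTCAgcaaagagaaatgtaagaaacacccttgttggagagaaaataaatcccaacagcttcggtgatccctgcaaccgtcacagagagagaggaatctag
Fbp1: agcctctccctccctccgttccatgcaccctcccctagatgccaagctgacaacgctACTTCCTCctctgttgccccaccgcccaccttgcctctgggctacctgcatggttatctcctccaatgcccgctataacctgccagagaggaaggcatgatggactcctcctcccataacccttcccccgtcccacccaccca
Afap1: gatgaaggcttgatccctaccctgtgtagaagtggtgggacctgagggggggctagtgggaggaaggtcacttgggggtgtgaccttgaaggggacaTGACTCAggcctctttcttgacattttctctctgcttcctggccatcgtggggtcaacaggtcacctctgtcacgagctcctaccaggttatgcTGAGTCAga

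The deposited tables list only sites that had passed the authors' window test (p under 0.0001), and each site has a normalized count per library, the reads in it divided by a constant for that library. A site is called gained here when every Daxx-KO library lay above every WT library and lost when every one lay below. At 24 w.p.i. 41.3% of the listed H3K27ac sites were gained and 56% lost. At 3 w.p.i. 39.2% of 101434 autosomal sites were gained and 58.4% lost. With 2 mice against 2, an exact permutation test at a single site cannot give a p below 0.333. The H3K27ac libraries held on average 1.33 to 2.26 reads per 600-bp window at 3 w.p.i. and 3.97 to 10.3 at 24 w.p.i., so the 3 w.p.i. values are the less precise ones. Over the floxed exons of Daxx the H3K27ac value at 24 w.p.i. was 113 and 93.7 in Daxx-KO against 858 and 368 in WT, and at 3 w.p.i. it was 24.2 and 13.6 against 65.5 and 105, as the genotype labels require. Among markers of HSPCs, the Cd34 promoter carried H3K27ac in all 8 libraries, its leading site having 155 to 519 at 3 w.p.i. and 388 to 850 later. The Kit promoter, of the receptor the cells were enriched on, had 501 and 584 in Daxx-KO against 408 and 172 in WT at 24 w.p.i., but at 3 w.p.i. only 7.75 and 7.65 against 6.45 and 50.8. Ly6a, which encodes Sca-1, had 58.1 and 75.6 against 12.9 and 26.5 at 3 w.p.i. and 76.4 and 49.8 against 113 and 134 at its longer site of 24 w.p.i. For Ptprc, the pan-leukocyte antigen CD45, a site was listed at 24 w.p.i. only, with 388 and 383 against 376 and 815.

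Of the 39645 sites at 24 w.p.i. that overlapped a 3 w.p.i. site, 17.9% were lasting gains. Among the 15652 of these that were gained at 24 w.p.i., 45.3% lay over a 3 w.p.i. gain. Among the 22722 that were lost at 24 w.p.i., 29.8% did. The opposite class, H3K27ac losses at both ages, held 15722 sites.

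Lasting gains were 600 to 12450 bp long, with a median of 950 bp against 800 bp for all listed sites. Their median normalized count at 24 w.p.i. was 142 and 148 in Daxx-KO against 65.9 and 68 in WT. At 3 w.p.i. the medians were 33 and 45.9 against 10.8 and 12.1. The median log2 fold change, on the scale of log2(group mean + 1), was 1.1 at 24 w.p.i. and 1.71 at 3 w.p.i. The gains of each table as a whole had larger medians, 1.43 and 2.5. Both WT libraries were listed at 0 at 379 lasting gains at 3 w.p.i. and at 5 at 24 w.p.i. A mean of at least 20 normalized counts in the higher group at both ages was reached by 5467 lasting gains, a fold of at least 2 at both ages by 3905, and both by 2535.

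The rule has a sharp edge. Just inside it lay a site in Snx9, 9580 bp from the Synj2 TSS, with 196 and 52.7 in Daxx-KO against 52.6 and 28.7 in WT at 3 w.p.i. Also just inside lay a pair of sites 6291 and 7041 bp upstream of Cxcl1, a neutrophil chemokine, over the same 3 w.p.i. site with 9.69 and 76.5 against 9.67 and 8.83. Just outside lay a site 45446 bp from the Slc44a3 TSS, with 456 and 524 in Daxx-KO against 362 and 456 in WT at 24 w.p.i. Membership of such sites turned on differences far smaller than the gap between mice of 1 genotype.

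The clearest separations were at the other end, ranked by the gap between the lowest Daxx-KO and the highest WT value at the age where it was smaller. Most of the 12 sites named here were small and had no or nearly no WT signal. The leading promoter site lay 1346 bp upstream of Gstm5, a glutathione transferase, at chr3:107894151-107894800, with 7.75 and 13.6 in Daxx-KO against 0 and 0 in WT at 3 w.p.i., and 34.5 and 23.4 against 0 and 1.58 at 24 w.p.i. At the promoter of Mpp3, a membrane scaffold protein, the values were 8.72 and 27.2 against 0 and 0, then 39.7 and 49.8 against 4.47 and 4.75. Nav1, which encodes a neuron navigator protein, had 11.6 and 13.6 against 0 and 0, then 101 and 73.2 against 14.5 and 15.8 at its promoter. The other 3 promoter sites were at Vwc2, Mroh4 and Klk1, the last a kallikrein. The leading distal site, at chr3:77955551-77956600, lay 1188902 bp from its nearest TSS, that of Rapgef2, with 9.69 and 11.9 against 0 and 0 and then 51 and 29.3 against 0 and 1.58. A site 123582 bp upstream of Ccnd2, which encodes cyclin D2, had 11.6 and 8.50 against 0 and 0 at 3 w.p.i. and 29.2 and 41 against 2.23 and 1.58 at 24 w.p.i. The other distal sites lay nearest Tns3, Olfr1505, Vrk1 and Sall3. At 3 w.p.i. 3 reads correspond to 2.55 to 3.3 normalized counts, so WT values below this are within counting error of 0. No fold is given for these sites.

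The 3 longest lasting gains were large acetylated regions with high values in both genotypes at 24 w.p.i. In Anxa11, which encodes a calcium-dependent membrane-binding annexin, a region of 12450 bp had 15000 and 15300 at 24 w.p.i. against 6630 and 7150. The 3 w.p.i. site that stands for it, chr14:25851151-25851750, was short and had only 6.78 and 25.5 against 0 and 2.21. A region of 11250 bp within Erg, which reached a TSS window and so counted as a promoter site, had 12500 and 13000 against 6200 and 7170, and at 3 w.p.i. 718 and 751 against 402 and 343. A region of 10900 bp, 32558 bp upstream of Atp1b3, a subunit of the sodium pump, had 15100 and 12800 against 4420 and 4620, and at 3 w.p.i. 282 and 178 against 47.3 and 72.8. The rule required the Daxx-KO values to be the higher ones. At each of these regions the gap between the genotypes at 24 w.p.i. was wider than that between the 2 WT mice.

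A site with any base within 1 kb of an annotated TSS was taken as a promoter site, and distances run from the middle of a site to the nearest protein-coding TSS. Of the lasting gains, 1535 (21.7%, Wilson 95% interval 20.7 to 22.6) were at promoters, 44.8% in introns, 4.73% in exons and 28.8% between genes. Among all listed sites 19.5% were at promoters and 27.9% between genes, close to the lasting gains. Every lasting gain overlaps a 3 w.p.i. site, and among all 24 w.p.i. sites that do so 24.8% were at promoters and 23.3% between genes, so against these the lasting gains were fewer at promoters and more between genes. They differed from the 8566 gains at 24 w.p.i. that overlapped a 3 w.p.i. site without having gained there, 36.9% of which were at promoters and 19.7% between genes. Lasting losses were at promoters in 23.2%. Of the promoter lasting gains 73.7% lay at a protein-coding TSS and 1.69% only at antigen-receptor gene segments. The median log2 fold change was 0.95 at promoter and 1.20 at intergenic lasting gains at 24 w.p.i., and 1.59 and 1.8 at 3 w.p.i., while the 24 w.p.i. levels were higher at promoters. In the median promoter site these were 341 and 337 in Daxx-KO against 183 and 189 in WT, and in the median intergenic site 116 and 124 against 51.4 and 50.6. Intervals here and below cover counting error only, and neighbouring sites are not independent.

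The share of listed sites that were lasting gains ran from 2.75% on chromosome 4 to 4.74% on chromosome 13. Within 5 Mb of Daxx on chromosome 17, where the targeted allele lies, it was 3.52% (59 of 1677), close to the 3.66% of the genome.

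The lasting gains were nearest to 3743 of 20780 protein-coding genes on the autosomes, and some genes held many. Etv6, an ETS-family repressor needed by blood stem cells, had 25, followed by Erg, an ETS-family activator of stem-cell genes, with 22 and Runx2, a runt-domain factor best known from bone, with 20. Syk, the kinase that relays signals from immune receptors, and Zfp217, a zinc-finger repressor, had 18 each. Haao and Retreg1 had 17 each, as did Zfp386, where 16 of the 17 lay at promoters, almost all of variable gene segments of the immunoglobulin heavy chain.

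Counts of this kind grow with the number of sites a gene has, so they were set against all its sites that overlapped a 3 w.p.i. site. The genes were picked for their many lasting gains, so high shares follow in part from the choice and are given as a description. At Syk 85.7% of 21 such sites were lasting gains, at Runx2 71.4% of 28, at Erg 71% of 31, at Zfp217 69.2% of 26 and at Etv6 51% of 49. Erg held 44 gained and 15 lost sites at 24 w.p.i. and 2 lasting losses beside its 22 lasting gains. Its lasting gains ran from 54307 bp upstream to 57320 bp downstream of the nearest Erg TSS, with log2 fold changes of 0.74 to 2.27 at 24 w.p.i. The site whose sequence is shown above, 25857 bp upstream, had 23.3 and 22.9 in Daxx-KO against 1.07 and 2.21 in WT at 3 w.p.i. and 49.5 and 99.5 against 13.4 and 15.8 at 24 w.p.i. At Runx2 the lasting gains lay in the middle of the gene, from 15918 to 127118 bp downstream of a TSS. At Etv6 the gains were weaker, with a median log2 fold change of 0.69 at 24 w.p.i., and 8 lasting losses lay among them.

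**Figure D1:**
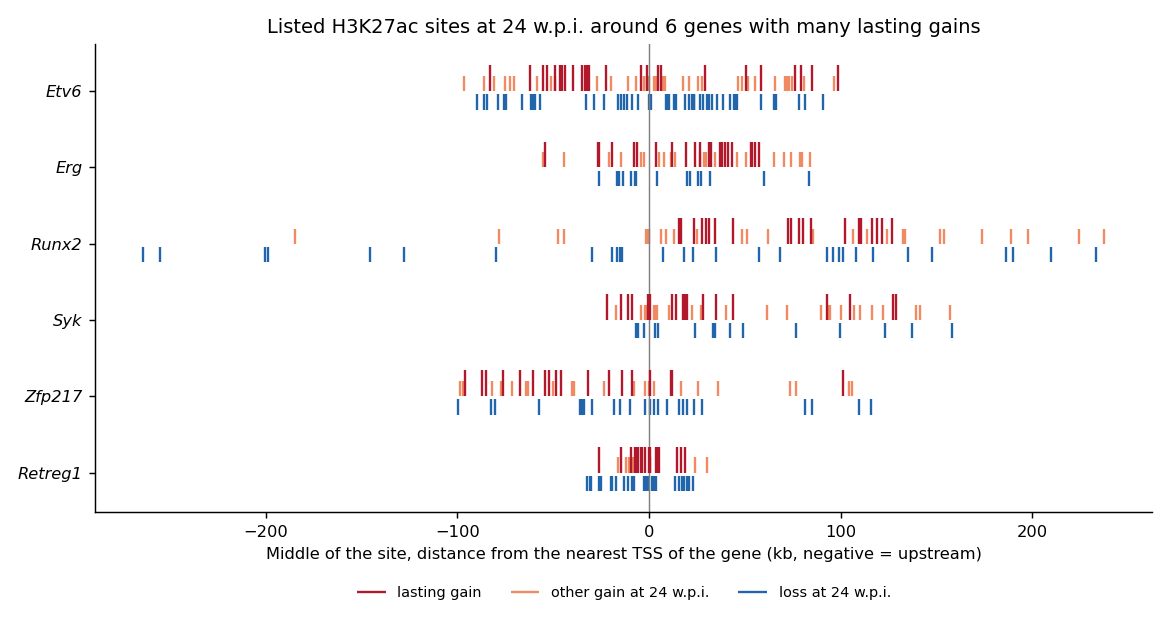
Listed H3K27ac sites at 24 w.p.i. around 6 genes with many lasting gains, by the distance of the site's middle from the nearest TSS of the gene in kb (negative values upstream). Tall dark red lines are lasting gains, short orange lines other gains and blue lines losses at 24 w.p.i.; at Runx2 the lasting gains lie downstream of the TSS, and at Etv6 they are interleaved with losses.

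Genes of neutrophil granules and the neutrophil surface stood out among 18 gene lists. Of 19 such genes with an annotated TSS on the autosomes, 15 (78.9%, Wilson 95% interval 56.7 to 91.5) were nearest to a lasting gain, against 18% of all protein-coding genes. Only Fcnb, a ficolin, was also nearest to a lasting loss, whereas 33.6% of all genes were nearest to one. Of the 57 sites of these genes that overlapped a 3 w.p.i. site, 43 were lasting gains, or 75.4% against 17.9%.

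At the serine proteases Elane and Ctsg lasting gains covered the promoters themselves. The region over the promoter of Elane, which encodes neutrophil elastase, had 298 and 180 in Daxx-KO against 78.4 and 97.1 in WT at 3 w.p.i. and 1820 and 1890 against 689 and 793 at 24 w.p.i. It also stands for Prtn3, proteinase 3, next to Elane. At the promoter of Ctsg, cathepsin G, the values were 453 and 360 against 216 and 209, then 2470 and 3190 against 1390 and 1480. The Elane promoter held the larger log2 fold change of the pair at both ages, 1.44 and 1.32 against 0.93 and 0.98.

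Genes of the later granules also had lasting gains. At the promoter of Lcn2, lipocalin 2, a carrier of iron-binding siderophores, the 3 w.p.i. values were 20.4 and 34 against 4.30 and 9.93. The same region had 4930 and 3780 against 1800 and 1740 at 24 w.p.i. A site 11808 bp from Camp, the cathelicidin peptide, had 23.3 and 15.3 against 0 and 3.31, then 659 and 760 against 360 and 322. Values of the 2 ages are from separately normalized tables and are not compared in level. In Ltf, lactotransferrin, an exonic site had 11.6 and 8.50 against 0 and 1.10, then 65.2 and 55.6 against 20.1 and 26.9. Near Ly6g, the neutrophil surface antigen, a site had 50.4 and 51.8 against 18.3 and 26.5, then 2380 and 2650 against 1360 and 1370. Weaker at 24 w.p.i. were a site in the S100a9 neighbourhood, with 255 and 236 against 202 and 98.9, and a site near Retnlg, with 345 and 313 against 211 and 250.

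**Figure D2:**
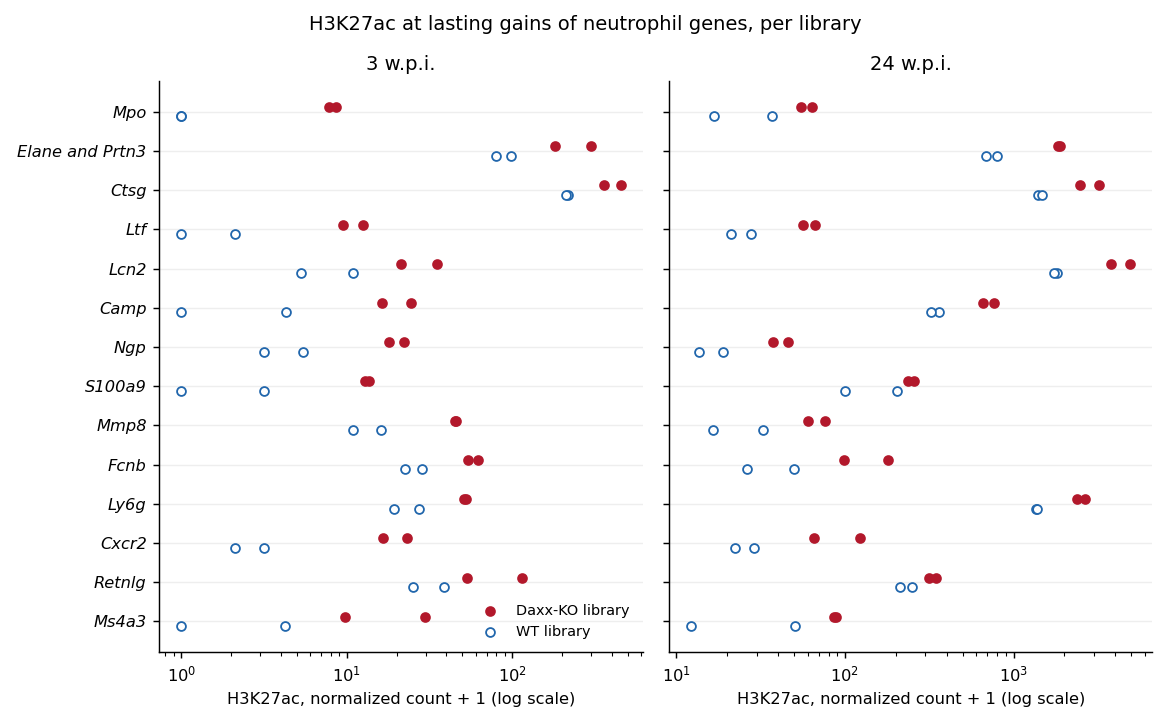
H3K27ac at the lasting gain that stands for each neutrophil gene, as normalized count + 1 on a log scale, at 3 w.p.i. (left) and 24 w.p.i. (right). Filled red points are Daxx-KO libraries and open blue points WT libraries, 2 of each per row, and in every row both red points lie to the right of both blue ones because the rule required it.

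Over all listed sites nearest to these 19 genes, whether or not they were lasting gains, the summed H3K27ac was 3770 and 4520 in Daxx-KO against 2040 and 2000 in WT at 3 w.p.i., and 102000 and 101000 against 51600 and 56800 at 24 w.p.i. The summed signal of these markers was thus 2.05 and 1.87 times as high in Daxx-KO. These sums include the 43 lasting gains, which are higher in Daxx-KO by the rule, so they are not independent of it. Sums without them, and the ratio over all listed sites, were not computed. The cells were a bulk population, and more cells of the neutrophil lineage among them and more signal per cell cannot be told apart. At 24 w.p.i. the promoters of 14 of the 19 genes had gained sites only, 4 had mixed sites, 1 had no site and none had lost sites only. At 3 w.p.i. 8 had gained sites only, 1 lost sites only, 1 mixed sites and 9 no site. These counts rest on the values that the rule used, and the share over all genes was not computed.

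Regulators of myeloid differentiation were mixed. Of 19, 12 were nearest to a lasting gain and 12 to a lasting loss. In Spi1, an intronic region at chr2:91085851-91089750 had 386 and 325 in Daxx-KO against 153 and 159 in WT at 3 w.p.i. and 5650 and 5720 against 3160 and 3460 at 24 w.p.i. Spi1 had 3 lasting gains and no lasting loss. Cebpe, the C/EBP factor of late granulocytes, had 51.4 and 57.8 against 14 and 28.7 at its promoter, then 3970 and 3510 against 2110 and 2240. Cebpd, another C/EBP factor, had 47.5 and 58.6 against 20.4 and 28.7, then 3110 and 2860 against 1630 and 1770. Gfi1, a repressor needed for granulocytes, was nearest to 6 lasting gains and no lasting loss. Irf8, which directs monocytes and dendritic cells, was nearest to 2 lasting gains and 2 lasting losses.

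Stem-cell regulators and markers also had lasting gains and losses side by side, at 15 and 18 of 32 genes, but of their 247 sites over a 3 w.p.i. site 39.3% were lasting gains. With the libraries brought to the same median, 15 had gains and 14 losses. Lmo2, a bridging factor of the stem-cell complex, was nearest to 13, Meis1, a homeobox cofactor, to 9 and Kit, the stem-cell factor receptor, to 7. The region over the Hoxa9 neighbourhood, at the Hoxa7 promoter, had 102 and 133 against 36.5 and 32, then 589 and 556 against 204 and 165. Upstream of Gata2, a zinc-finger factor of stem and mast cells, a site had 23.3 and 42.5 against 7.52 and 8.83, then 1280 and 1060 against 438 and 288. In the same direction, the summed H3K27ac of the list, its lasting gains included, was 1.65 times as high in Daxx-KO at 3 w.p.i. and 1.37 times at 24 w.p.i. Similar ratios at 3 w.p.i. were those of monocyte and macrophage markers, 1.7, megakaryocyte genes, 1.53, and myeloid regulators, 1.52. At 24 w.p.i. these lists had 0.79, 1.14 and 1.14. Similar ratios at 24 w.p.i. were those of glycolysis and gluconeogenesis genes, 1.48, cyclin-dependent kinase inhibitors, 1.38, and mast-cell and basophil genes, 1.35. At 3 w.p.i. the latter lists had 1.06, 0.655 and 1.1.

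Among growth-factor and cytokine receptors, 12 of 21 were nearest to a lasting gain and 13 to a lasting loss. Flt3, the receptor of multipotent and lymphoid progenitors, had 8 lasting gains and no lasting loss. Its promoter region had 59.1 and 36.5 in Daxx-KO against 8.6 and 13.2 in WT at 3 w.p.i. and 632 and 499 against 145 and 188 at 24 w.p.i. Il1r1, the receptor of interleukin 1, had 4 lasting gains and no lasting loss, the leading one with 52.3 and 63.7 against 11.8 and 13.2, then 201 and 217 against 51.4 and 60.9. At the promoter of Ifngr2, a subunit of the interferon-gamma receptor, a site of which stands for Ifnar1, the groups barely separated at 24 w.p.i., with 4080 and 3270 against 2950 and 3020.

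Erythroid genes had few lasting gains and many lasting losses. Of 18, 2 were nearest to a lasting gain (11.1%, interval 3.1 to 32.8, against 18% of all genes) and 13 to a lasting loss. Of their 48 sites over a 3 w.p.i. site, 3 (6.25%) were lasting gains, against 17.9% of all such sites. The summed H3K27ac of their listed sites was 1850 and 2180 in Daxx-KO against 3380 and 3150 in WT at 3 w.p.i., and 18700 and 17100 against 21200 and 20700 at 24 w.p.i. The summed signals of the neutrophil and erythroid lists thus differed in opposite directions in the same libraries, the former with its many lasting gains included. The part of these lineages in the other counts was not tested.

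T-cell genes had lasting gains at 4 of 17 and lasting losses at 15, the highest share of losses among the lists (88.2%). B-cell genes had gains at 6 and losses at 11 of 21, megakaryocyte genes at 5 and 6 of 12, mast-cell and basophil genes at 3 and 4 of 12 and monocyte and macrophage markers at 3 and 8 of 15. Among the B-cell genes Rag2, Igll1 and Dntt had lasting gains and no lasting loss. Dntt, the terminal transferase of lymphoid progenitors, had 5 lasting gains. Its neighbourhood had 12.6 and 50.1 against 3.22 and 4.41 and then 48.7 and 39.5 against 6.70 and 15. Near Ebf1, the B-lineage master factor, an intronic site had 85.3 and 112 against 25.8 and 19.9, then 129 and 108 against 24.6 and 11.1, with 2 lasting losses nearby. At Hdc, the histidine decarboxylase of basophils and mast cells, the promoter had 77.5 and 72.2 against 34.4 and 43, then 2010 and 1880 against 925 and 1110.

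Glycolysis and gluconeogenesis genes had lasting gains at 7 of 13 and losses at 6. At Fbp1, the fructose-bisphosphatase of gluconeogenesis, the promoter region at chr13:62887301-62888750 had 94 and 121 in Daxx-KO against 8.6 and 21 in WT at 3 w.p.i. and 224 and 184 against 51.4 and 72.8 at 24 w.p.i. This region lay within 50 kb of Fbp2 as well and stands for both. Fbp1 had 3 lasting gains and Fbp2 had 1, with no lasting loss at either. Hk1 and Hk2, the hexokinases, had 2 and 3 lasting gains and 5 and 2 lasting losses.

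AP-1 factors had lasting gains at 6 of 12 and losses at 8, and inflammatory cytokine and NF-kB genes at 6 and 12 of 19. With the libraries brought to the same median, the AP-1 factors had gains at 6 and losses at 5, and the inflammatory genes gains at 9 and losses at 11. Nfkbia, the NF-kB inhibitor, was nearest to 6 lasting gains and 3 lasting losses. A site near Nfkb1, in an intron of Manba, had 31 and 47.6 against 4.30 and 4.41, then 571 and 397 against 98.3 and 34.8. Il1a, interleukin 1 alpha, had 1 lasting gain, with 34.9 and 39.1 against 12.9 and 11 and then 2040 and 1640 against 912 and 880. Lists with few lasting gains were interferon-stimulated genes, with gains at 4 of 31 and losses at 10, nucleic-acid sensors, with 3 and 5 of 15, H3.3 chaperones and H3K9 or H3K27 methylation genes, with 3 and 13 of 26, cyclin-dependent kinase inhibitors, with 1 and 3 of 7, and regulators of non-blood development, with 1 and 4 of 25. In all, 101 of 314 listed genes had a lasting gain, or 32.2% against 18% of all genes. A lasting loss was nearest to 153, or 48.7% against 33.6% of all genes, so both shares were higher in the lists. The listed genes also more often had a site over a 3 w.p.i. site, 236 of 314 against 11126 of 20780.

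**Figure D3:**
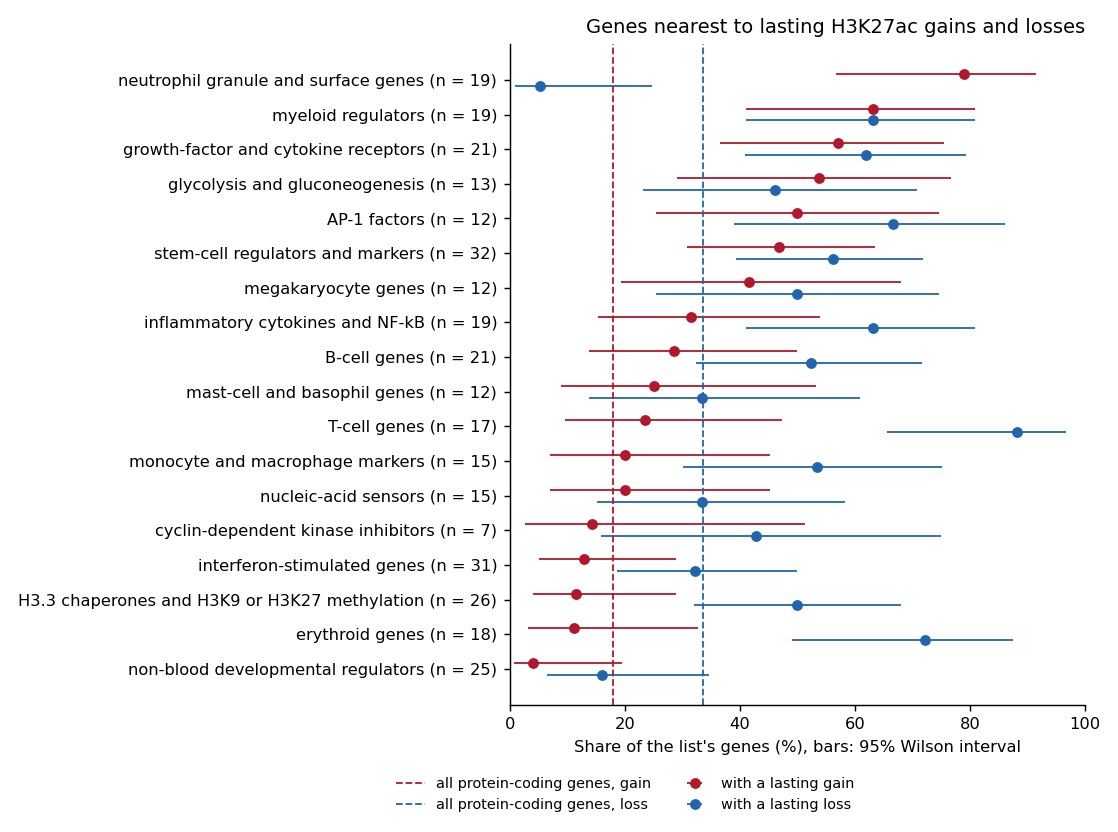
Share of the genes of each list that were nearest to a lasting H3K27ac gain (red) or a lasting loss (blue), in percent, with Wilson 95% intervals as bars and dashed lines at the shares of all protein-coding genes, 18% for gains and 33.6% for losses. Neutrophil genes combine the highest share of gains with the lowest share of losses, erythroid genes had 11.1% and 72.2%, and T-cell genes the highest share of losses, 88.2%.

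H3K27me3 at 24 w.p.i., from the same mice, was mostly lower where H3K27ac had gained. Of 1786 H3K27me3 sites that overlapped a lasting gain, 1498 were lost and 258 gained, a gained share of 14.7% of those that separated the genotypes (interval 13.1 to 16.4). Over all listed H3K27me3 sites 40.8% were gained and 56.8% lost, and the gained share of separated sites was 41.8%. It was 28% at any listed H3K27ac site of 24 w.p.i., 27.1% at lasting losses and 14.1% at gains of 24 w.p.i. that had not gained at 3 w.p.i. A low gained share thus went with an H3K27ac gain at 24 w.p.i., whether or not it was lasting. At the Fbp1 promoter H3K27me3 was 102 and 149 in Daxx-KO against 355 and 534 in WT. At Spi1 it was 31.9 and 19.3 against 137 and 60, and at Cebpe 68.6 and 57 against 213 and 194. All 12 H3K27me3 sites over lasting gains of neutrophil genes were lost. The Flt3 promoter went the other way, with 380 and 376 against 187 and 296.

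At some lasting gains H3K27me3 was near 0 in Daxx-KO, and the following were chosen after their values were seen. In an intron of Rreb1, a zinc-finger factor, H3K27me3 was 0.8 and 0 in Daxx-KO against 71 and 34.3 in WT, where H3K27ac was 176 and 223 against 122 and 125 at 3 w.p.i. and 684 and 515 against 443 and 404 at 24 w.p.i. In Fndc3b, H3K27me3 was 1.60 and 1.84 against 65.3 and 45.7, and H3K27ac at 24 w.p.i. was 3690 and 3730 against 2490 and 2560.

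H3.3 and Pu.1 at 3 w.p.i. were more often higher than lower at lasting gains, but little more so than at H3K27ac sites in general. At gains of 24 w.p.i. that had not gained at 3 w.p.i. the gained share was higher, 74.9% for H3.3 and 74.6% for Pu.1. Of 1998 H3.3 sites 1344 were gained and 615 lost, a gained share of 68.6% (66.5 to 70.6) of those that separated the genotypes, against 67% at any listed H3K27ac site and 58.7% over the whole table, in which 57.7% of all listed sites were gained and 40.7% lost. For Pu.1 the gained share was 66% at lasting gains, 64.4% at any H3K27ac site and 55.2% over the whole table, in which 54.1% of all listed sites were gained and 44% lost. Promoters stood higher, at 76.3% for H3.3 and 77% for Pu.1 against 64.7% and 61% at distal lasting gains. This split was not computed for H3K27ac sites in general, so whether it is particular to lasting gains was not tested. At 24 w.p.i. the gained share was 52.9% in H3.3 sites and 45.1% in Pu.1 sites, with 51.5% and 44.1% at any H3K27ac site. Over the whole tables of 24 w.p.i. 51.3% of the H3.3 sites were gained and 47% lost, as were 46.9% and 51.3% of the Pu.1 sites. The H3.3 and Pu.1 libraries of WT replicate 2 at 3 w.p.i. were shallow, with 3.06 and 2.75 reads per window against 22.88 and 33.78 in WT replicate 1.

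Single promoters differed in what Pu.1 did there. At the Elane promoter Pu.1 was 47.3 and 44.6 in Daxx-KO against 20.4 and 32 in WT at 3 w.p.i. and 109 and 79.4 against 5.76 and 10.5 at 24 w.p.i., and the ETS motif in the sequence shown lies inside both sites. At Cebpe the ETS motif shown lies inside a Pu.1 site of 24 w.p.i. with 4.09 and 2.09 against 46.1 and 67.4, although H3K27ac was higher there. At 3 w.p.i. Pu.1 was higher in Daxx-KO at both listed sites of the Cebpe region, with 52 and 47.8 against 35.5 and 0 and with 40.2 and 34.9 against 17.8 and 9.59. At Flt3 Pu.1 was 86.6 and 50.1 against 0 and 0 at 24 w.p.i. At Fbp1 it was 6.13 and 1.04 against 48.9 and 36.8. Higher H3K27ac thus occurred with higher and with lower Pu.1 values. At Lcn2, H3.3 was higher in Daxx-KO at all 4 listed sites, 2 at each age. At Elane H3.3 was 67.1 and 81.1 against 50.5 and 5.24 at 3 w.p.i. but 16.6 and 20.4 against 118 and 39.5 at 24 w.p.i. Over all lasting gains of neutrophil genes, 12 H3.3 sites were gained and 5 lost at 3 w.p.i., and 11 and 17 at 24 w.p.i. For Pu.1 the counts were 8 and 8, then 5 and 14.

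**Figure D4:**
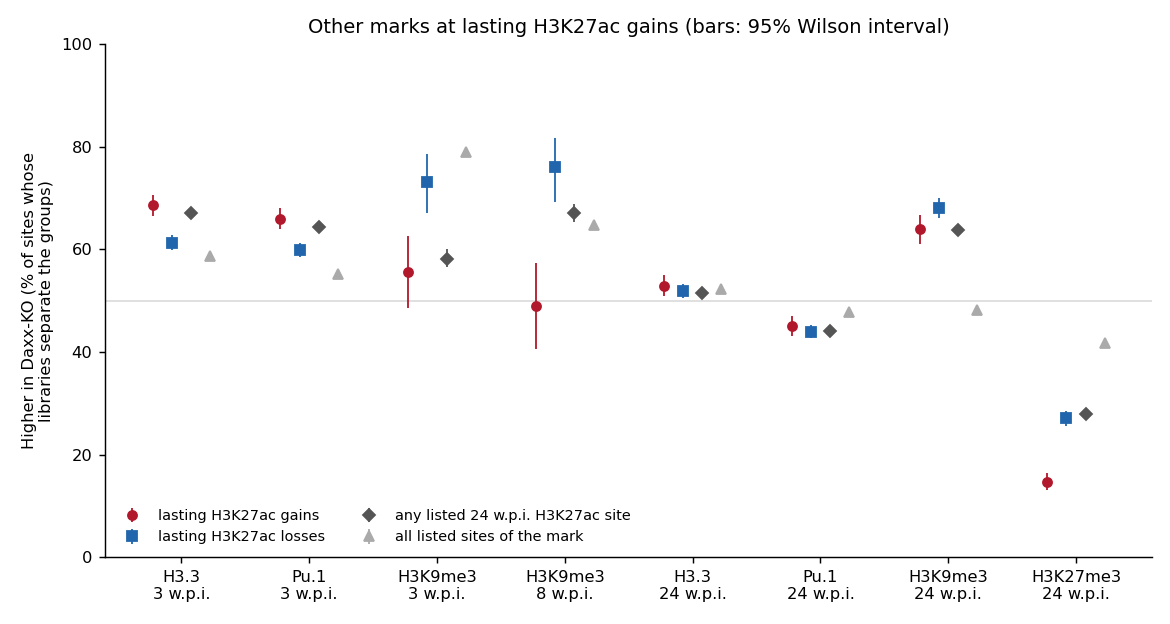
Share of the sites of each other mark that were higher in Daxx-KO, as a percentage of the sites whose libraries separated the genotypes, at lasting H3K27ac gains (red circles), lasting losses (blue squares), any listed H3K27ac site of 24 w.p.i. (dark diamonds) and over the whole table of the mark (grey triangles), with Wilson 95% intervals. Lasting gains lie below the other classes for H3K27me3 and for H3K9me3 at 3 and 8 w.p.i., at 3 w.p.i. only slightly below any listed H3K27ac site (55.6% against 58.2%). For H3.3 and Pu.1 they lie within 3 percentage points of any listed H3K27ac site at both ages.

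H3K9me3 sites overlapped few lasting gains at the early ages. At 3 w.p.i. 104 of them were gained and 83 lost, at 8 w.p.i. 65 and 68, and at 24 w.p.i. 685 and 387. Its gained share of separated sites was 55.6% (48.5 to 62.6) at 3 w.p.i., where 78.6% of all listed sites were gained and 21% lost, 48.9% (40.5 to 57.3) at 8 w.p.i., where 57.6% were gained and 31.5% lost, and 63.9% at 24 w.p.i., where 46.9% were gained and 50.3% lost. At lasting losses it was 73.2%, 76% and 68.1%, and at any listed H3K27ac site of 24 w.p.i. 58.2%, 67.1% and 63.8%. At 24 w.p.i. the lasting gains thus had the share of H3K27ac sites in general. The early shares depended on the scaling of the libraries. With the libraries of each table brought to the same median, the share at lasting gains was 28.5% at 3 w.p.i. and 31.8% at 8 w.p.i., while that of the whole tables fell from 78.9% to 60.6% and from 64.7% to 48.9%, and any listed H3K27ac site had 38.7% and 50.8%. At 24 w.p.i. it was 64.1%, with 64.3% at any listed H3K27ac site.

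A small group of lasting gains lay in regions where H3K9me3 was lower in Daxx-KO at 2 or all 3 ages, a class that was defined after the values were seen. It held 58 lasting gains (0.819%), 20 of them at all 3 ages, against 0.391% of all listed sites, 0.178% of lasting losses and 0.198% of the other gains of 24 w.p.i. over a 3 w.p.i. site. The opposite class, with H3K9me3 higher at 2 or more ages, held 45 lasting gains (0.635%) against 0.502% of all listed sites. Of the 132 lasting gains with H3K9me3 sites at 2 or more ages, 43.9% (35.8 to 52.5) were in the lower class, against 31% of such sites in the whole H3K27ac table. Most of these sites were away from promoters, with 9 at promoters, 20 in introns and 25 between genes. More than 50% of the central 600 bases was soft-masked as repeat at 25.9% of them (interval 16.3 to 38.4), against 9.27% of all lasting gains and 11.8% of all listed sites. The share at H3K27ac sites that overlap H3K9me3 sites in general was not computed, so whether it is particular to this class was not tested.

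At several of these regions H3K9me3 was far lower in Daxx-KO. In an intron of Cdyl2, which encodes a chromodomain protein, H3K9me3 was 20.9 and 26.7 in Daxx-KO against 1080 and 1080 in WT at 3 w.p.i., 44.3, 12.9 and 66.8 against 1690, 1250 and 1090 at 8 w.p.i. and 1.28 and 2.08 against 118 and 125 at 24 w.p.i. H3K27ac there was 80.4 and 84.1 against 41.9 and 32 at 3 w.p.i. and 139 and 124 against 46.9 and 79.1 at 24 w.p.i. In an intron of Smyd3, which encodes a lysine methyltransferase, H3K9me3 was 32.6 and 20 against 880 and 837 at 3 w.p.i. and 273 and 302 against 1200 and 1440 at 24 w.p.i. Between genes near Gnaq, a G-protein subunit, a fully soft-masked site had H3K27ac of 1510 and 1650 against 579 and 680 at 24 w.p.i. and H3K9me3 of 184 and 168 against 686 and 623. The genotypes do not overlap in these examples because the class required it.

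**Figure D5:**
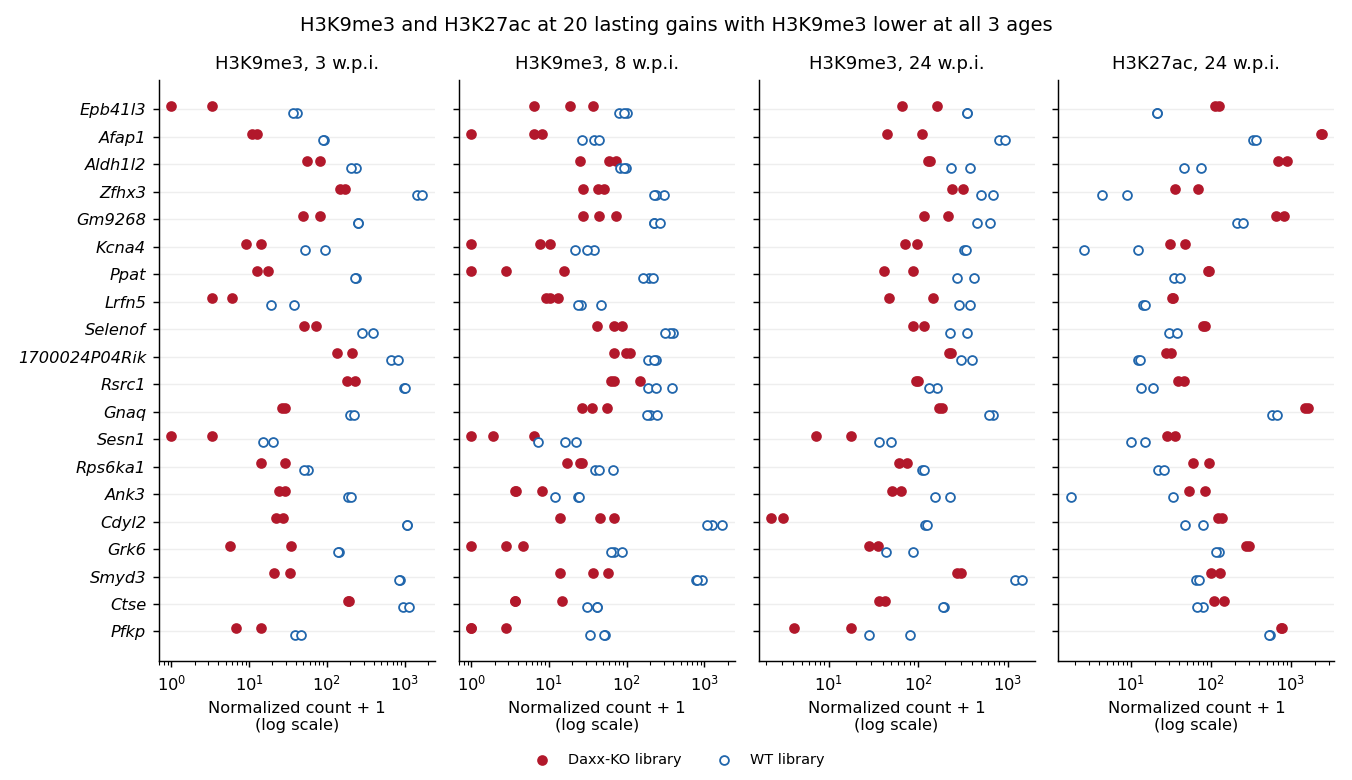
H3K9me3 at 3, 8 and 24 w.p.i. and H3K27ac at 24 w.p.i. at the 20 lasting gains with H3K9me3 lower at all 3 ages, named by the nearest protein-coding TSS, as normalized count + 1 on a log scale. Each point is a library, filled red for Daxx-KO and open blue for WT, and where a lasting gain overlapped several H3K9me3 sites the longest is drawn; the Daxx-KO points lie left of the WT points for H3K9me3 and right of them for H3K27ac.

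Across the other marks, 1924 lasting gains (27.2%) overlapped no listed site of any of the 8 other tables, and 2 overlapped a site that separated the genotypes in all 8. The first, at chr5:36087851-36092250, lies in an intron of Sorcs2, which encodes a sorting receptor, 103045 bp from the TSS of Afap1. H3K27ac there was 7.75 and 10.2 in Daxx-KO against 1.07 and 0 in WT at 3 w.p.i. and 2410 and 2460 against 342 and 369 at 24 w.p.i. H3K9me3 was 11.6 and 10 against 91 and 87 at 3 w.p.i. and 44 and 109 against 805 and 937 at 24 w.p.i. H3K27me3 was higher, 302 and 642 against 63.5 and 28.6. Both AP-1 motifs of the sequence shown lie inside the H3K9me3 sites of all 3 ages. The other lay 107242 bp from its nearest protein-coding TSS, that of the glutamate receptor gene Grm4, and had H3K27ac of 297 and 258 against 181 and 116 at 24 w.p.i., and its H3.3 sites there pointed both ways, 1 gained and 1 lost.

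The sequence of lasting gains was much like that of the other listed sites. In the central 600 bases the median GC content was 48% against 47.7% over all listed sites. The ETS motif was found in 6.20% against 5.08%, the RUNX motif TGTGGTT in 16.5% against 14.2%, the AP-1 motif in 18.1% against 16.7% and the IRF motif GAAANNGAA in 17.4% against 16.1%. The GATA motif AGATAAG was in 7.37% against 7.33%, and in 9.21% of lasting losses. The C/EBP motif TTGCGCAA was in 12 lasting gains, 0.169% against 0.0924%. Motifs were searched on both strands and may overlap each other, and a match is not a binding site.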

How the data were processed

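CUT&Tag libraries of HSPCs were compared between Daxx-KO and WT mice. Per the submitters' processing notes, CASAVA 1.8.4, cutadapt 1.13, STAR 2.5.3 and bedtools were used on mm10. Per the file headers, the authors ran diffReps 1.55.6, which counted reads in windows of 600 bp moved by 50 bp, tested them with a negative binomial model (p under 0.0001) and merged passing windows into sites. The deposited signal, as made by the authors, is the read count of a site divided by a normalization constant of the library, and only listed sites have a value. The columns with the authors' group averages, fold changes, p-values and adjusted p-values hold results of their own comparison and were not used. Library totals are not in the tables, and the mean reads per window in the headers stand for depth.

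Values of single libraries were taken from 10 tables. The 4 tables with DKO libraries were not used here, nor was the H3K27me3 table of 8 w.p.i., whose header lists H3K9me3 libraries as its controls. Each library was assigned to its genotype by the mouse number in the header and in the labels. A site was gained when all Daxx-KO values were above all WT values, lost in the reverse case. Sites overlapped when they shared 1 bp. Promoters were within 1 kb of a TSS of GENCODE M21 on mm10, and the nearest gene was the protein-coding gene whose TSS was closest to the middle of the site. Log2 fold changes used a pseudocount of 1. Shares have Wilson 95% intervals. No test across sites was made, since the tables hold selected sites and sites are not replicates. Mice were not paired between genotypes.

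The members, the 18 gene lists and the classes compared were chosen with earlier results of these data known. Named were the 6 promoter and 6 distal sites with the largest separation, the 8 genes with the most members, list genes with a member within 50 kb (the member of largest separation standing for the gene, also where another TSS was closer), the 5 members with the most other marks, the 5 sites on either side of the rule's edge and the 3 longest, and only some of them are named in the text. Motifs were searched in the central 600 bases of each site. Python 3.11.15, numpy 2.4.6, pandas 2.3.3, matplotlib 3.10.9 and samtools 1.23.1 were used, and the functions passed 10 of 10 checks on simulated intervals and values. Alternatives were other overlaps, minimum counts and folds, other promoter widths, rescaled libraries and each library left out in turn.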

Additional observations from a re-analysis of the deposited data

Results flagged for a closer look

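At lasting H3K27ac gains that overlapped H3.3 sites of both ages, the direction of H3.3 often differed between 3 and 24 w.p.i. Of 740 such places, 190 were gained at 3 w.p.i. in every library and lost at 24 w.p.i. in every library, 82 were the reverse, 227 were gained at both ages and 88 lost at both. For Pu.1, 235 of 795 were gained at 3 w.p.i. and lost at 24 w.p.i., 91 were the reverse, 161 were gained at both ages and 122 lost at both. These counts are listed because every library moved one way at 3 w.p.i. and the opposite way at 24 w.p.i. The difference between the ages was not tested. Of all H3.3 sites at lasting gains 67.3% were gained and 30.8% lost at 3 w.p.i., and 52% and 46.2% at 24 w.p.i. Of all Pu.1 sites there 64% were gained and 33% lost at 3 w.p.i., and 44.1% and 53.7% at 24 w.p.i. With such shares, opposite directions would be common even if the ages were unrelated. The mice of the ages differed, and the 3 w.p.i. libraries of WT replicate 2 were the shallowest of these 2 marks.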

How the results depend on the processing

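No paired analysis was possible because the labels tie no Daxx-KO mouse to a WT mouse and no test was run on the sites. Of 120 alternative values of the 12 main results, 103 kept within 1.5 times the count or within the 95% interval of the share, and 17 did not. The number of lasting gains was 12214 when sites within 1 kb of each other counted as overlapping and 3905 at a fold of at least 2 at both ages, and 7131 to 7418 with a library left out, since the rule is then easier to meet. The promoter share was 34.9% within 3 kb of a TSS, 15.1% within 250 bp, 16% for protein-coding TSSs and 17.3% at a fold of at least 2, where all listed sites had 33.7%, 12.1% and 15.4% for the first 3. The gained share of H3.3 at 3 w.p.i. was 76.3% at promoter and 64.7% at distal lasting gains, and that of Pu.1 77% and 61%. For H3K27me3 it was 11.9% at promoters and 16.7% with sites within 1 kb, and for H3K9me3 at 24 w.p.i. 69.2% at promoters. For H3K9me3 at 3 w.p.i. it was 41.9% at promoters and 28.5% with rescaled libraries, and at 8 w.p.i. 31.8% with rescaled libraries. The cause of these shifts was not tested. Counted at promoters only, 49 list genes had a lasting gain. With a library left out, the gained shares were 52.9% to 53% for H3.3 at 24 w.p.i., 68.1% to 68.8% for H3.3 at 3 w.p.i., 14.7% to 15.2% for H3K27me3, 63.6% to 64.2%, 48.5% to 49.6% and 55.3% to 55.9% for H3K9me3 at 24, 8 and 3 w.p.i., and 45.1% to 45.4% and 64.9% to 66.6% for Pu.1 at 24 and 3 w.p.i. The list genes then numbered 101 to 105 and the lasting gains with lower H3K9me3 at 2 or more ages 57 to 59. Rescaled libraries gave 108 list genes, 15 neutrophil genes with a lasting gain and 10 erythroid genes with a lasting loss. Among the single lists only the kinase inhibitors moved when a library was left out, from 1 to 2 genes without Daxx-KO replicate 1 of 3 w.p.i. Leaving out libraries for the list genes and the lower H3K9me3 class, and rescaling for them and for H3K9me3 at 8 w.p.i. were chosen after seeing the data.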
